A study of Mus musculus with 12 samples.

Results

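The microtubule-associated proteins of migrating neurons were followed here through 10 genes, Dcx, Dclk1, Mapt, Map2, Map1b, Stmn1, Stmn2, Nde1, Ndel1 and Pafah1b1, in the embryonic mouse cortex. Every probe whose annotated gene symbol was one of these names was used, which gave 38 of the 45281 probes of the Illumina mouse WG-6 v2.0 array, for 10 of its 19057 named genes. Total RNA of the cortex was measured in the embryo at E12.5, at E15.5 and at E18.5, on 4 arrays per stage and 12 in all, and the RNA of each stage is described as coming from 4 embryos. The labels name no strain, genotype or treatment, and they do not say whether each array is a separate embryo, so p-values measure only the spread between these arrays, which may be technical. Values are log2 signals after background correction and quantile normalization. A probe was tested when its detection p, the chance of such a signal from the negative control probes, was under 0.01 on at least 1 array.

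Neurons born near the ventricle reach the cortical plate by extending a leading process and pulling the nucleus forward, and both steps run on microtubules. Doublecortin family proteins, tau, MAP2 and MAP1B bind along the lattice and stabilize it, while stathmins bind free tubulin dimers and favour disassembly. LIS1, encoded by Pafah1b1, works with the related scaffolds NDE1 and NDEL1 to load cytoplasmic dynein, the motor that draws the nucleus and centrosome forward and that also acts at the mitotic spindle and the kinetochore. Mutations of DCX and of PAFAH1B1 cause lissencephaly in humans, and loss of NDE1 causes microcephaly.

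Windows of the 250 bases before the annotated transcription start were listed in RefSeq (build GRCm38.p6) for 7 of the 10 genes, and 3 are shown. Nde1 and Ndel1 are the paralogs whose main probes moved in opposite directions, and Dcx is a gene whose signal rose. Capitals mark every match, on either strand, of TATAAA or CCAAT.
Nde1, chr16:14163025-14163274, plus strand: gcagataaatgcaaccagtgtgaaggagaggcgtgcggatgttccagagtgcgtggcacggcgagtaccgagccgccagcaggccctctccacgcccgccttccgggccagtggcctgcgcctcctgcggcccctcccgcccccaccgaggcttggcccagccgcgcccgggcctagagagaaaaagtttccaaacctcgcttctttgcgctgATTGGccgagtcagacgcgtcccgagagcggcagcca
Ndel1, chr11:68853136-68853385, minus strand: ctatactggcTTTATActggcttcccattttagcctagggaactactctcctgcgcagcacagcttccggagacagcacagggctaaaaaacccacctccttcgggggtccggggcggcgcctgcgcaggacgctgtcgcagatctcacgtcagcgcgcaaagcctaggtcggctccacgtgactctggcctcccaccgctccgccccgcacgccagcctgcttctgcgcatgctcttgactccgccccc
Dcx, first listed start, chrX:143933220-143933469, minus strand: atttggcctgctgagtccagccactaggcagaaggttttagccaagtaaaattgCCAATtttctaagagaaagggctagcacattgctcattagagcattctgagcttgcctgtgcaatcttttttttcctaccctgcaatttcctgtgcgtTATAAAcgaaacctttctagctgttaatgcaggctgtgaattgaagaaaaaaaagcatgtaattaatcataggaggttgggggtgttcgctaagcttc
The Nde1 window held 1 CCAAT match (read as ATTGG), which began 37 bases before the start, and no TATAAA match. The Ndel1 window held 1 TATAAA match (read as TTTATA), 240 bases before the start, and the Dcx window held both motifs, at 98 bases for TATAAA and 196 bases for CCAAT. The GC box GGGCGG on either strand, which is not capitalized, was found 1 time in the Nde1 window, 3 times in the Ndel1 window and 0 times in the Dcx window. Of 32841 windows of this length, 12.4% held TATAAA, 33.9% held CCAAT and 32.7% held GGGCGG. The GC content was 67.2% for Nde1, 63.6% for Ndel1 and 41.6% for Dcx, against a median of 52.4% over all windows, so that the paralogs were alike in composition and the Dcx window was AT-rich. These matches describe the letters only.

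Median signals of the arrays were between 86.1 and 99.3, lowest in the E12.5 and highest in the E18.5 arrays, and 15227 to 17472 probes were detected on each. The array of E12.5 replicate 4 stood apart, with a first principal component score of -53.4, whereas the remaining arrays of its stage scored -91.6 to -88.2 and the E15.5 arrays -8.89 to 7.39. Over the 972 genes that were at least 2-fold higher at E15.5 without this array, it lay a median of 48.2% of the way towards E15.5. It was kept, and results that rest on it are given with and without it. Of the cortical markers, Emx1 and Tbr1 were detected on all 12 arrays, and Emx2 was not tested here.

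Of the 38 probes, 29 were tested and 9 were detected on no array. Each gene had at least 1 probe that was detected on all 12 arrays, and each is described by its tested probe of highest mean signal, called its main probe. Between E18.5 and E12.5, Mapt, Stmn2, Dclk1, Dcx, Ndel1, Map2 and Map1b rose, Nde1 and the main probe of Pafah1b1 fell, and Stmn1 was not called (limma, adjusted p under 0.01 over all 19652 tested probes). Thus 7 of 10 main probes were higher at E18.5, beside 31.5% of all 10662 tested genes, and 2 were lower, beside 34.4%. At 2-fold or more, 6 were higher, beside 16.3% of genes, and 1, Nde1, was lower, beside 13.8%. The E18.5 arrays lay wholly above the E12.5 arrays for 7 members, beside 32.5% of genes, and wholly below them for 2, beside 36.1%, and overlapped for Stmn1. The median log2 fold change was 1.13 for the 10 genes and -0.07 for all tested genes.

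Between E15.5 and E12.5, 6 members were higher, beside 24.2% of all tested genes, and 2 were lower, beside 21.8%. At 2-fold or more, 4 were higher (Mapt, Stmn2, Dcx and Dclk1), beside 7.73%, and 1 was lower (Nde1), beside 5.18%. The arrays of the 2 stages were separate for 6 higher members, beside 28.1% of genes, and for 2 lower members, beside 24.8%. Their median log2 fold change was 0.63, against -0.01 for all tested genes. The second lower member, Pafah1b1, was near the threshold, and its call was lost when any 1 array was left out other than E12.5 replicate 1 or 4, which leaves 1 lower member. Between E18.5 and E15.5, 6 members were higher, beside 19.8% of genes, and 1 was lower, beside 23.4%, with a median log2 fold change of 0.69 for the members and -0.06 for all genes. Mapt, Stmn2 and Dclk1 were at least 2-fold higher (3 members, beside 6.95% of genes) and Nde1 at least 2-fold lower (1 member, beside 5.47%). The arrays were separate for 7 higher members, beside 25.7%, and 2 lower members, beside 30.7%, with Stmn1 overlapping. Under median scaling in place of quantile normalization, only 1 member was called higher and 2 lower in this later interval. Mapt lost its call there when any array of E15.5 or E18.5 was left out (adjusted p = 0.0112 to 0.0177). Its call was also lost under median scaling (adjusted p = 0.0364), under cyclic loess (0.0102) and with no detection filter (0.0189). An intensity trend with robust estimation lost it as well. The other alternatives kept the call, with a lowest adjusted p of 1.90e-08, so that the call of the later step of Mapt depended on the setting.

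**Figure D1:**
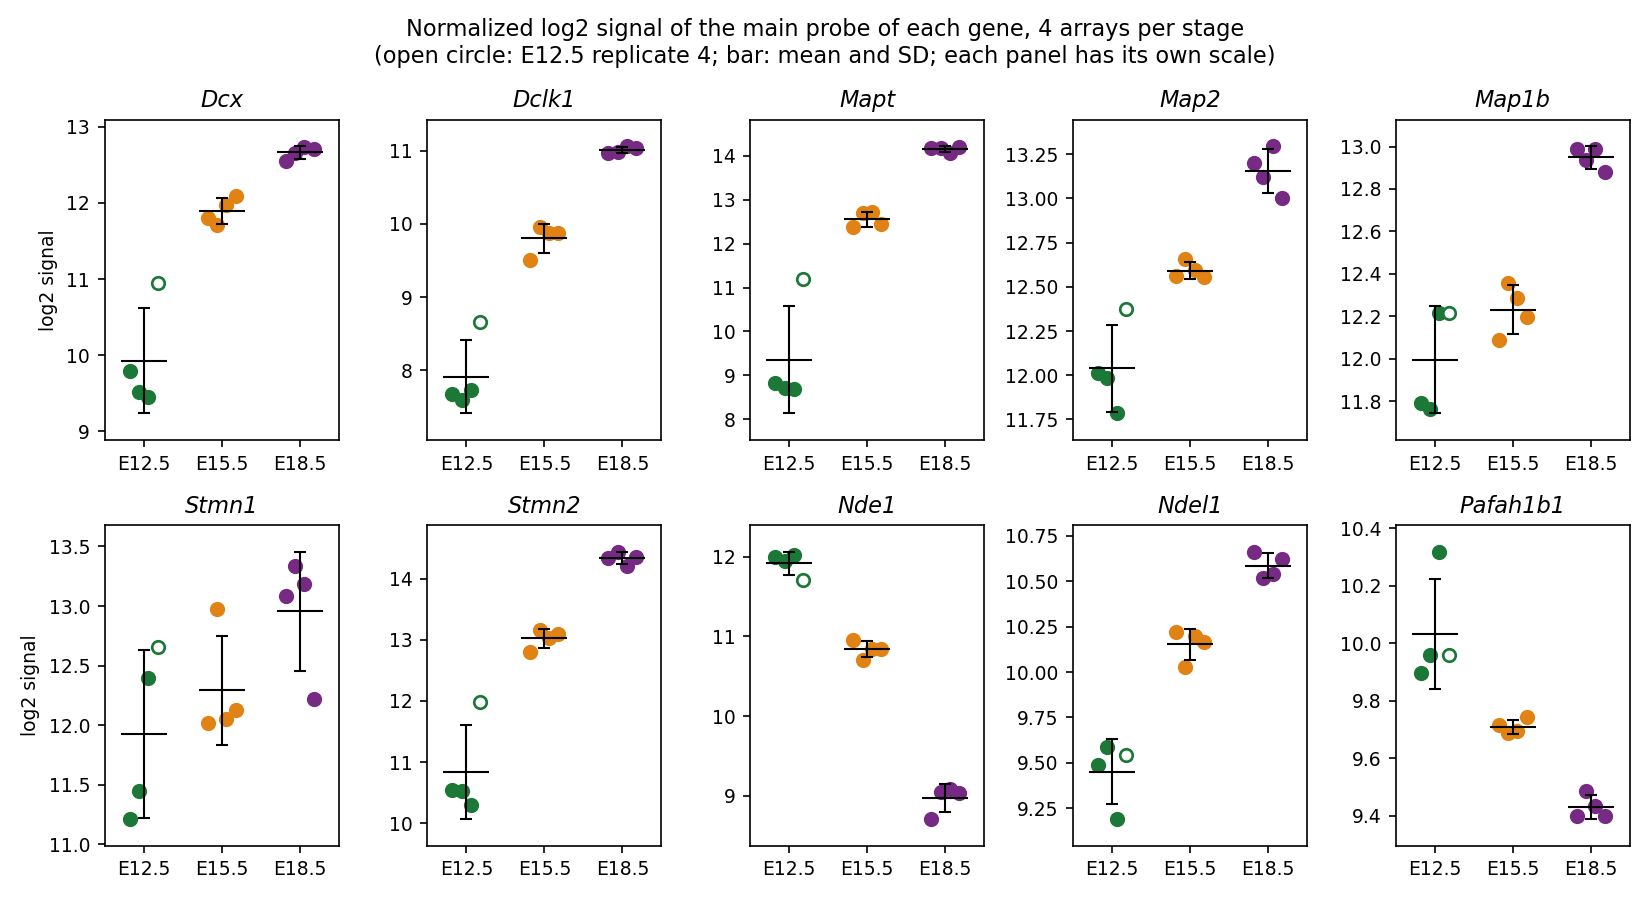
Normalized log2 signal (vertical axis, a separate scale in each panel) of the main probe of each of the 10 genes at the 3 stages, with 1 point per array, 4 arrays per stage, and the mean and SD as bars. Nde1 and Pafah1b1 step down, Stmn1 overlaps between stages, and the open circle, E12.5 replicate 4, lies above the other E12.5 arrays for Dcx, Dclk1, Mapt, Map2, Stmn1 and Stmn2.

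Doublecortin, encoded by Dcx, binds between protofilaments and is made by young migrating neurons. Its main probe read 9.80, 9.52, 9.45 and 10.94 at E12.5, 11.81, 11.71, 11.97 and 12.09 at E15.5, and 12.55, 12.65, 12.73 and 12.71 at E18.5. No array of one stage overlapped another stage, and E12.5 replicate 4, at 10.94, was the highest of its stage. Dcx was 3.91-fold higher on the E15.5 arrays than on the E12.5 arrays (log2 fold change 1.97 ± 0.25, SE, limma adjusted p = 2.32e-05) and 6.66-fold higher on the E18.5 arrays than on the E12.5 arrays (2.73 ± 0.25, adjusted p = 2.89e-07). The later step, 0.77 ± 0.25 between E18.5 and E15.5, missed the threshold (adjusted p = 0.0192). It passed when E12.5 replicate 4 was left out (0.76, adjusted p = 4.09e-05). It also passed without background correction (adjusted p = 0.00905), with array weights (0.000697) and when only these stages were fitted (5.34e-05). It did not pass under median scaling (0.42, adjusted p = 0.140) or with no detection filter (adjusted p = 0.0504), so that the call of the later step of Dcx depended on the setting. All stages share 1 estimate of the spread in the fit across stages. A second RefSeq mRNA probe of Dcx gave 1.72 ± 0.27 and 0.74 ± 0.27 for the 2 intervals, and a clone probe was detected on 0, 1 and 2 arrays of the successive stages.

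Dclk1 encodes a doublecortin-like protein that joins the same microtubule-binding domains to a kinase. The main Dclk1 probe read 7.68, 7.59, 7.73 and 8.67 at E12.5, 9.51, 9.95, 9.88 and 9.88 at E15.5, and 10.97, 10.97, 11.06 and 11.03 at E18.5. The stages did not overlap, and the E18.5 arrays had an SD of 0.04. Dclk1 rose in both intervals, by a log2 fold change of 1.89 ± 0.19 for E15.5 over E12.5 (adjusted p = 5.56e-06) and of 1.20 ± 0.19 for E18.5 over E15.5 (adjusted p = 0.000152). It was 8.54-fold higher on the E18.5 arrays than on the E12.5 arrays. Of its other probes, both clone probes, 1 was detected on all 4 arrays of E18.5, on none of E15.5 and on 1 of E12.5. That probe averaged 6.99 at E18.5 and 5.23 at E15.5, which is at least 2.31-fold higher when an undetected signal is raised to the lowest detected signal of its array. This bound is a description, since only 1 array before E18.5 was above background.

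Mapt encodes tau, an axonal lattice-binding protein, and had the largest change among the 10 main probes. It read 8.82, 8.72, 8.69 and 11.19 at E12.5, 12.37, 12.70, 12.71 and 12.45 at E15.5, and 14.18, 14.17, 14.05 and 14.20 at E18.5. The stages were fully separate, although E12.5 replicate 4 was far above the other arrays of its stage. Mapt was 9.22-fold higher on the E15.5 arrays than on the E12.5 arrays (3.20 ± 0.42, adjusted p = 2.91e-05), 3.01-fold higher on the E18.5 arrays than on the E15.5 arrays (1.59 ± 0.42, adjusted p = 0.0058) and 27.8-fold higher on the E18.5 arrays than on the E12.5 arrays (4.80 ± 0.42, adjusted p = 1.87e-07). Without E12.5 replicate 4, the E18.5 over E12.5 value was 5.40 on the log2 scale. The other tested Mapt probes rose in both intervals as well, by 3.59 ± 0.18 and 2.52 ± 0.23 for E18.5 over E12.5, and each was detected on 1 of the 4 E12.5 arrays and on every later array.

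Map2 encodes the lattice-binding protein that marks dendrites and cell bodies. On its main probe Map2 read 12.01, 11.98, 11.78 and 12.37 at E12.5, 12.56, 12.66, 12.59 and 12.55 at E15.5, and 13.20, 13.12, 13.29 and 13.00 at E18.5. The stages did not overlap and the steps of this probe were of nearly equal size, 0.55 ± 0.11 for E15.5 over E12.5 (adjusted p = 0.000982) and 0.56 ± 0.11 for E18.5 over E15.5 (adjusted p = 0.000905). Under median scaling its later step was 0.12 and was not called (adjusted p = 0.372). The probes of Map2 gave unequal changes. For E18.5 over E12.5 the main probe gave 1.12 ± 0.11, while the other tested RefSeq mRNA probes gave 2.29 ± 0.11 and 1.97 ± 0.16. Those probes gave 0.96 ± 0.11 and 0.75 ± 0.16 for the earlier interval and 1.33 ± 0.11 and 1.22 ± 0.16 for the later. Their differences between intervals were not called (limma adjusted p = 0.165 and 0.226). A pair of clone probes was detected on all 4 arrays of E18.5 and on no earlier array. They passed the filter only through E18.5, so their difference is a description, of at least 1.67-fold and 1.37-fold against the lowest detected signals of the E12.5 arrays.

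Map1b encodes a lattice-binding protein of growing axons that is present early in neuronal development. Its main probe, of a clone sequence, read 11.79, 11.76, 12.22 and 12.21 at E12.5, 12.09, 12.36, 12.28 and 12.20 at E15.5, and 12.99, 12.94, 12.99 and 12.88 at E18.5. The E12.5 and E15.5 arrays overlapped, and all E18.5 arrays lay above both. The difference of 0.24 ± 0.12 between E15.5 and E12.5 was not called (adjusted p = 0.0973), although it passed with array weights (0.36, adjusted p = 0.00615) and with the mean of the detected probes (0.33, adjusted p = 0.00225). Map1b rose by 0.72 ± 0.12 between E18.5 and E15.5 (adjusted p = 0.00015). All 4 other Map1b probes, of RefSeq mRNAs, rose in the later interval, by 0.91 to 1.45, and 1 of them also passed in the earlier interval (0.59 ± 0.13, adjusted p = 0.00211). For E18.5 over E12.5 the 5 probes gave 0.95 to 1.98.

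**Figure D2:**
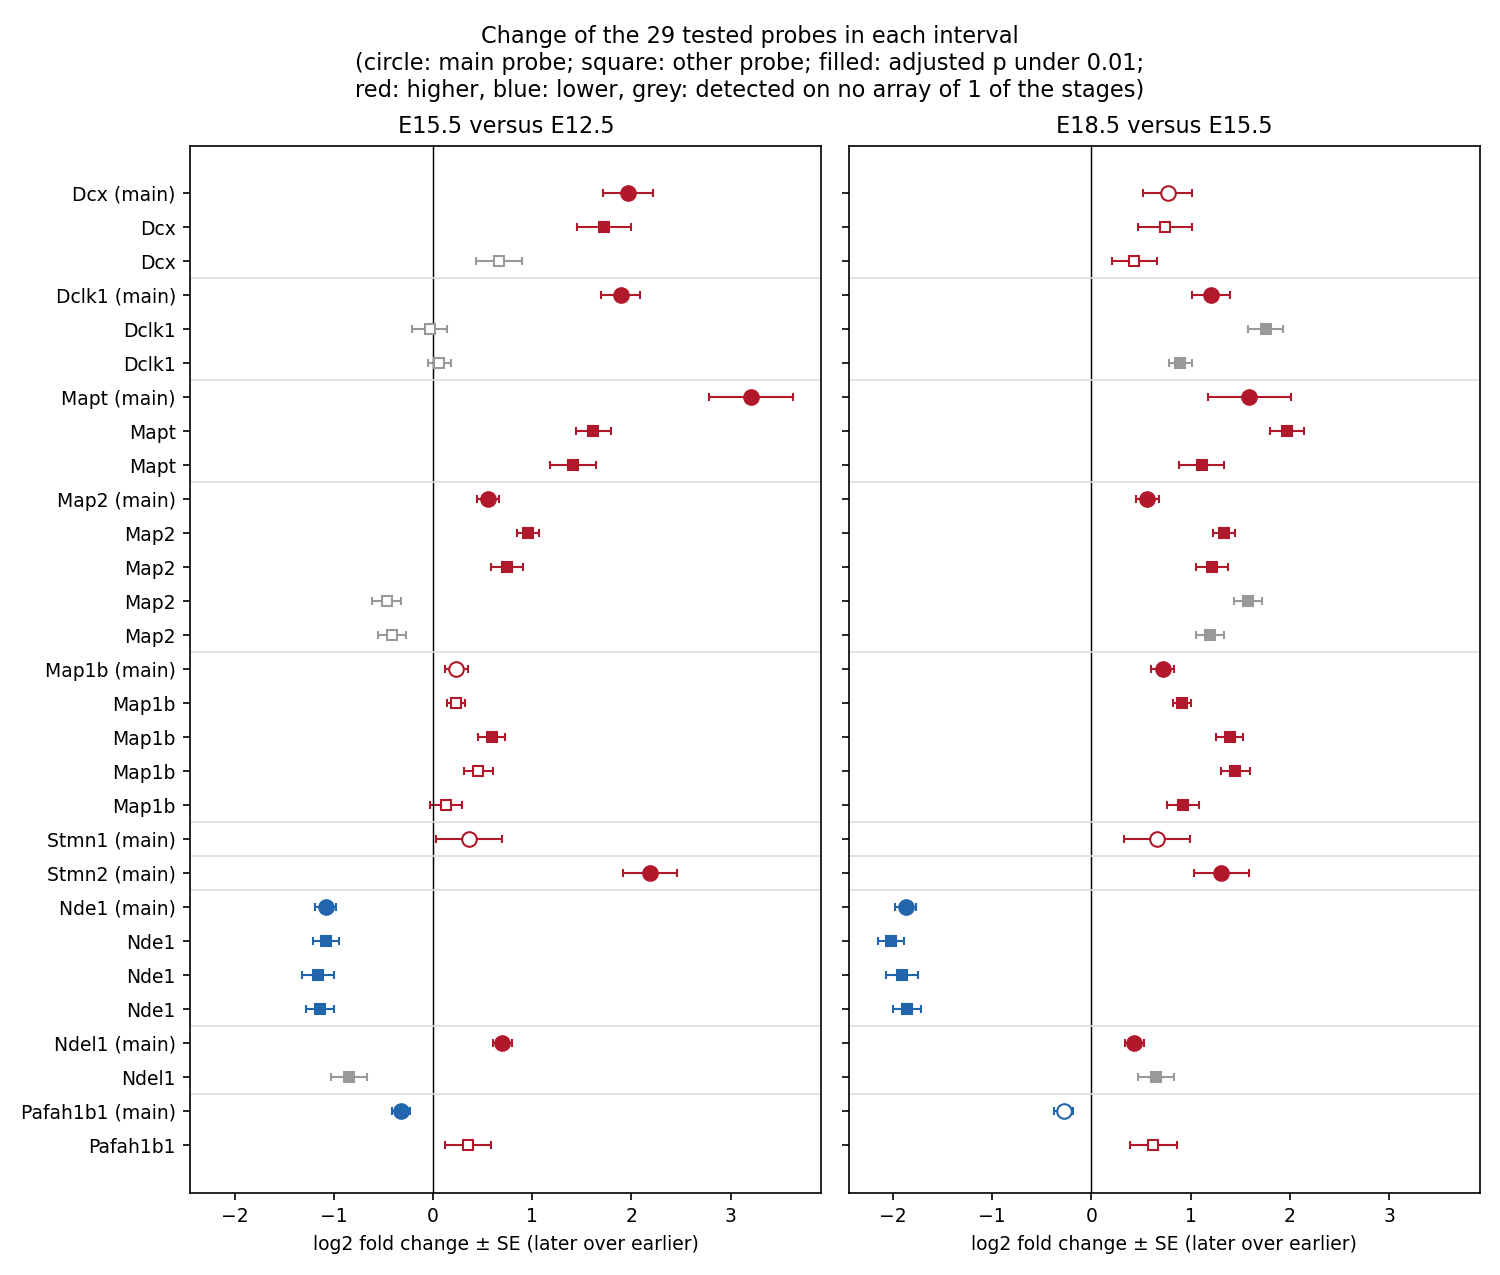
Log2 fold change ± SE (horizontal axis) of the 29 tested member probes for E15.5 over E12.5 and for E18.5 over E15.5, with circles for main probes, squares for other probes, filled symbols for adjusted p under 0.01 and grey where a probe was detected on no array of 1 of the stages. The 4 Nde1 probes lie together below 0 in both intervals, whereas the Pafah1b1 probes lie on opposite sides of 0.

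Stathmin, encoded by Stmn1, sequesters tubulin and is present in dividing cells as well as in neurons. Its only probe read 11.21, 11.45, 12.39 and 12.66 at E12.5, 12.02, 12.98, 12.05 and 12.13 at E15.5, and 13.08, 13.33, 13.19 and 12.22 at E18.5. All 3 stages overlapped, with SDs of 0.71 at E12.5, 0.46 at E15.5 and 0.50 at E18.5. None of the comparisons passed, and E18.5 over E12.5 came closest, at 1.03 ± 0.33 (adjusted p = 0.0136). This value passed without E12.5 replicate 4 (1.27, adjusted p = 0.00309), without E15.5 replicate 2 (1.02, adjusted p = 0.00941) and without E18.5 replicate 4 (1.28, adjusted p = 0.00367). It also passed without background correction (adjusted p = 0.00791), at an offset of 50 (0.00864), under cyclic loess (0.00948) and with array weights (0.00024). It did not pass under median scaling (0.62, adjusted p = 0.0606) or with no detection filter (adjusted p = 0.0382). The highest adjusted p of any alternative was 0.0768, so that whether Stmn1 was called depended on the setting. Stmn2 encodes SCG10, the membrane-bound stathmin of growing axons. Its detected probe read 10.54, 10.52, 10.30 and 11.98 at E12.5, 12.80, 13.16, 13.03 and 13.09 at E15.5, and 14.33, 14.44, 14.20 and 14.35 at E18.5. The stages were separate, and Stmn2 rose 4.54-fold between E15.5 and E12.5 (2.18 ± 0.27, adjusted p = 2.07e-05), 2.48-fold between E18.5 and E15.5 (1.31 ± 0.27, adjusted p = 0.00117) and 11.3-fold over the whole period. Its second probe was detected on no array.

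Nde1, whose protein is known for its part in the mitosis of cortical progenitors, fell in both intervals. Its main probe read 11.996, 11.95, 12.02 and 11.71 at E12.5, 10.96, 10.71, 10.84 and 10.85 at E15.5, and 8.71, 9.05, 9.08 and 9.03 at E18.5. No stages overlapped, and the SD within a stage was at most 0.17. The log2 fold change was -1.08 ± 0.11 for E15.5 over E12.5 (adjusted p = 4.10e-06) and -1.87 ± 0.11 for E18.5 over E15.5 (adjusted p = 1.21e-08), and Nde1 was 7.73-fold lower on the E18.5 arrays than on the E12.5 arrays. The 4 Nde1 probes, all of RefSeq mRNAs, gave -2.95 to -3.10 for E18.5 over E12.5 and were detected on every array. Ndel1, whose protein is the scaffold of LIS1 and dynein in postmitotic neurons, rose. On the main probe Ndel1 read 9.49, 9.59, 9.19 and 9.54 at E12.5, 10.22, 10.03, 10.20 and 10.16 at E15.5, and 10.66, 10.52, 10.54 and 10.62 at E18.5. The stages did not overlap, and the steps were 0.70 ± 0.10 for E15.5 over E12.5 (adjusted p = 3.96e-05) and 0.43 ± 0.10 for E18.5 over E15.5 (adjusted p = 0.00175). A clone probe of Ndel1 was detected on 1, 0 and 2 arrays of the successive stages and gave -0.85 ± 0.18 for the earlier interval, at signals that were mostly not above background. With the mean of the detected probes, Ndel1 gave -0.074 for that interval.

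Pafah1b1 encodes LIS1 itself, and its probes disagreed. The main probe read 9.90, 9.96, 10.32 and 9.96 at E12.5, 9.71, 9.69, 9.69 and 9.74 at E15.5, and 9.40, 9.49, 9.44 and 9.40 at E18.5. The stages did not overlap, the steps were small (-0.32 ± 0.09, adjusted p = 0.00922, and -0.28 ± 0.09, adjusted p = 0.0211), and the gene was 1.52-fold lower on the E18.5 arrays than on the E12.5 arrays by this probe (-0.60 ± 0.09, adjusted p = 4.81e-05). The other tested probe, also of a RefSeq mRNA, read 6.93, 7.17, 7.64 and 7.86 at E12.5, 7.45, 8.32, 7.69 and 7.55 at E15.5, and 8.40, 8.41, 8.77 and 7.93 at E18.5. It gave 0.98 ± 0.23 for E18.5 over E12.5 (adjusted p = 0.00192), the opposite direction, so that no direction can be given for Pafah1b1 as a gene. The mean of both probes gave 0.19 for E18.5 over E12.5 (adjusted p = 0.237).

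The Stmn1 probe and this second Pafah1b1 probe varied alike within stages. On both, E12.5 replicates 3 and 4 lay above replicates 1 and 2, E15.5 replicate 2 was the highest of its stage, and E18.5 replicate 4 was the lowest. Stmn1 deviated from its stage mean by 0.73 on E12.5 replicate 4, 0.68 on E15.5 replicate 2 and -0.73 on E18.5 replicate 4, and the Pafah1b1 probe deviated by 0.46, 0.57 and -0.45 on the same arrays. The main Pafah1b1 probe deviated there by -0.08, -0.02 and -0.03. This order was chosen after the values of Stmn1 were seen, and it was shared by 4 of the 29 tested member probes, the main probe of Map1b and the Dcx clone probe being the others, and by 1430 of all 19652 tested probes (7.28%). Its part in the Stmn1 and Pafah1b1 values was not tested.

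**Figure D3:**
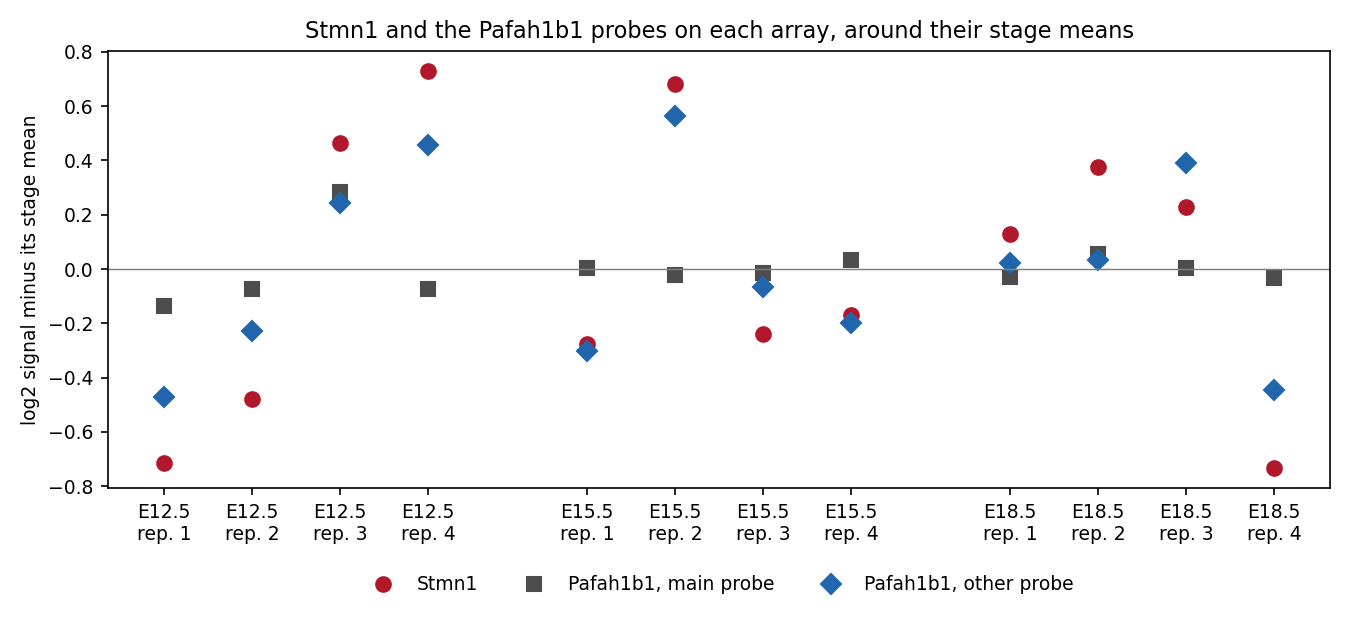
Log2 signal minus the stage mean (vertical axis) of Stmn1 and both tested Pafah1b1 probes on each of the 12 arrays (horizontal axis). Stmn1 and the second Pafah1b1 probe are high on E15.5 replicate 2 and low on E18.5 replicate 4, while the main Pafah1b1 probe stays within 0.06 of its mean on the arrays of E15.5 and E18.5.

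Differences between paralogs were taken within each array, which removes what an array adds to both probes and shows unequal change only. For Nde1 minus Ndel1 the E12.5 arrays gave 2.51, 2.36, 2.83 and 2.17, the E15.5 arrays 0.74, 0.68, 0.65 and 0.68, and the E18.5 arrays -1.95, -1.47, -1.46 and -1.59. The stages were separate at every step, and the difference between stages was -1.78 for E15.5 over E12.5, -2.30 for E18.5 over E15.5 and -4.08 for E18.5 over E12.5, each with an exact two-sided permutation p of 0.0286, the smallest that 4 against 4 arrays can give (0.0321 after adjustment over 9 tests).

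Stmn1 minus Stmn2 gave 0.67, 0.92, 2.09 and 0.68 at E12.5, -0.78, -0.18, -0.98 and -0.96 at E15.5, and -1.25, -1.11, -1.02 and -2.13 at E18.5. Stmn2 gained on Stmn1, and the difference changed by -1.82 for E15.5 over E12.5 and by -2.47 for E18.5 over E12.5 (exact permutation p = 0.0286 for each). The later step, -0.65, had the same p but lost it under median scaling (-0.45, exact p = 0.229) and under cyclic loess (-0.50, exact p = 0.114). It was also lost without any 1 of the E15.5 arrays (exact p = 0.0571 to 0.143, the highest without replicate 2, at -0.47) and without E18.5 replicate 4 (-0.40, exact p = 0.114). Dcx minus Dclk1 gave 2.12, 1.93, 1.72 and 2.28 at E12.5, 2.30, 1.76, 2.09 and 2.22 at E15.5, and 1.58, 1.68, 1.67 and 1.68 at E18.5. The pair did not separate E15.5 from E12.5 (0.08, exact p = 0.686), and Dclk1 gained on Dcx between E18.5 and E15.5 (-0.44) and between E18.5 and E12.5 (-0.36, exact p = 0.0286 for each). Without any 1 of the E18.5 arrays the p of both was 0.0571. The -0.36 also did not hold without background correction (-0.14, exact p = 0.514) or with the mean of the detected probes of a gene, where it was 0.17 (exact p = 0.457).

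**Figure D4:**
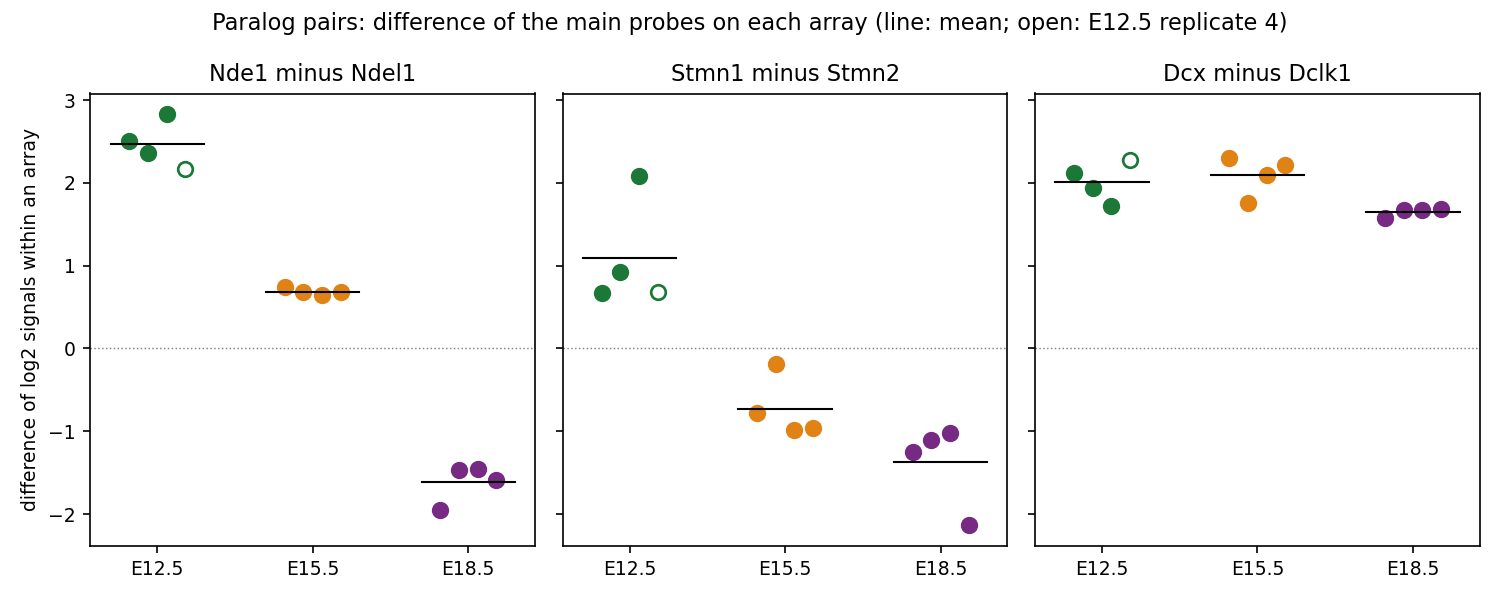
Difference of the log2 signals of the main probes of 2 paralogs within an array (vertical axis), with 1 point per array, 4 arrays per stage, and the mean as a line. Nde1 minus Ndel1 is 2.47 on average at E12.5, 0.69 at E15.5 and -1.62 at E18.5, with no overlap between stages.

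Whether a member changed unequally in the 2 intervals was tested as the later change minus the earlier one, both of which use the E15.5 arrays. Of the 10 main probes, 1 was called, beside 18.2% of all tested genes: Nde1 fell more in the later interval (-0.79 ± 0.18, adjusted p = 0.00544). Without E15.5 replicate 1, 3 or 4 this call was lost (adjusted p = 0.0252, 0.0181 and 0.0183), which leaves 0. Without E12.5 replicate 4 there were 5 calls, Nde1 and 4 genes whose later change was the smaller one, Dcx (-1.54, adjusted p = 4.00e-05), Dclk1 (-0.94, adjusted p = 0.000985), Mapt (-2.22, adjusted p = 7.06e-07) and Stmn2 (-1.25, adjusted p = 0.000121). With that array, the values of these 4 genes were -1.20, -0.69, -1.61 and -0.87 and were not called (adjusted p = 0.0508 to 0.184). The share of all tested genes called without that array is not given here, so the 5 calls cannot be set beside the 18.2%. The array lay 58.8%, 46.8%, 64.0% and 59.4% of the way from the other E12.5 arrays to E15.5 for Dcx, Dclk1, Mapt and Stmn2, and 24.5% for Nde1. Without it, the E15.5 over E12.5 log2 fold change was 2.31 for Dcx, 2.14 for Dclk1, 3.81 for Mapt and 2.56 for Stmn2. The main probe of Map1b gave 0.48 ± 0.20 and was not called (adjusted p = 0.0848), and it gave 0.088 under median scaling. Of the other 4 Map1b probes, 2 were called for a larger later change (0.68 ± 0.16, adjusted p = 0.00501, and 0.99 ± 0.25, adjusted p = 0.00986).

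The genes with the most similar profile were ranked by the root mean square (RMS) difference of log2 signals over the 12 arrays after each gene's mean was subtracted, among 10352 genes. Dcx was nearest to Stmn3 (0.11), Sh3gl2 (0.11) and Sh3rf3 (0.12), and Stmn2 to Aak1, Grb14 and Diras1 (0.13 to 0.14). The nearest member of Dcx was Dclk1, at 0.26, and 70 other genes lay closer. Nde1 was nearest to Kif4 (0.09), a mitotic kinesin, Gins2 (0.10), a replication factor, and Anln (0.11), a protein of cytokinesis. Of the members, Pafah1b1 was the closest to Nde1, at 0.99. Pafah1b1, by its main probe, was nearest to Pcbp1, Srsf4 and Mosmo (0.07 to 0.08), and Stmn1 to Klhl2, Cyfip2 and Tbc1d8 (0.15 to 0.18). The distances are descriptions over arrays that share their 3 stages.

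Other genes of the same machinery were counted by role for E18.5 over E12.5, beside 31.5% of all tested genes higher, 34.4% lower and a median of -0.07. Of the doublecortin and stathmin relatives, Stmn4 (3.40 ± 0.19, adjusted p = 2.14e-09), Stmn3 (2.73) and Dclk2 (1.45) rose, and Dclk3 was detected on all 4 E18.5 arrays and on no earlier array, so that it passed the filter only there. Of 22 tested genes listed as lattice and plus-end proteins, 17 rose and 1, Map7, fell (-0.40 ± 0.10, adjusted p = 0.00232). The list was drawn broadly and also held Crmp1, Dpysl2, Dpysl3, Dpysl4, Dpysl5, Camsap2 and Camsap3, which all rose. Its count and median are thus not those of lattice and plus-end binders alone. Among the 17, Mapre3 and Camsap2 were detected on no E12.5 array and passed the filter only through later stages, and the median of the list was 1.38, or 1.21 with genes undetected at E12.5 set to their bound. Map9 (2.76 ± 0.13) and Map6 (2.60 ± 0.14), a stabilizer of cold-resistant microtubules, were among those that rose. Map4 had a fitted value of 2.83 ± 0.23, which is no exact fold, since 3 of the 4 E12.5 arrays were not above background.

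Of 11 tested LIS1 and dynein partners, 6 rose and 1 fell, with a median of 0.35. The neuronal dynein intermediate chain Dync1i1 rose, with a fitted value of 4.46 ± 0.37 (adjusted p = 9.74e-08) that is no exact fold, since 3 of the 4 E12.5 arrays were not above background. The ubiquitous chain Dync1i2 rose by 0.78 ± 0.08, and the light intermediate chain Dync1li1 rose by 0.99 ± 0.09. Nudc, which encodes a LIS1-associated chaperone, was the 1 that fell (-0.56 ± 0.08, adjusted p = 2.97e-05), and the heavy chain Dync1h1 was at 0.12 ± 0.10 (adjusted p = 0.324). Of 9 tested kinases that act on the members, counted with the CDK5 activators, 4 rose, Mapk8 (JNK1, 2.10 ± 0.18), Mark1 (1.97 ± 0.11), the CDK5 activator Cdk5r1 (1.91 ± 0.22) and Cdk5 (1.39 ± 0.12), and Gsk3b fell (-0.51 ± 0.12). All 7 tested mitotic spindle proteins fell, with a median of -3.09, including Aspm (-3.17 ± 0.15), Tpx2 (-3.17 ± 0.13) and Spag5 (-3.11 ± 0.11), while Numa1 (-0.81 ± 0.11) and Ckap5 (-0.38 ± 0.11) fell less. The severing enzymes Fignl1 (-2.64 ± 0.11) and Katna1 (-1.23 ± 0.12) fell, and the other 3 of the 5 tested were not called.

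**Figure D5:**
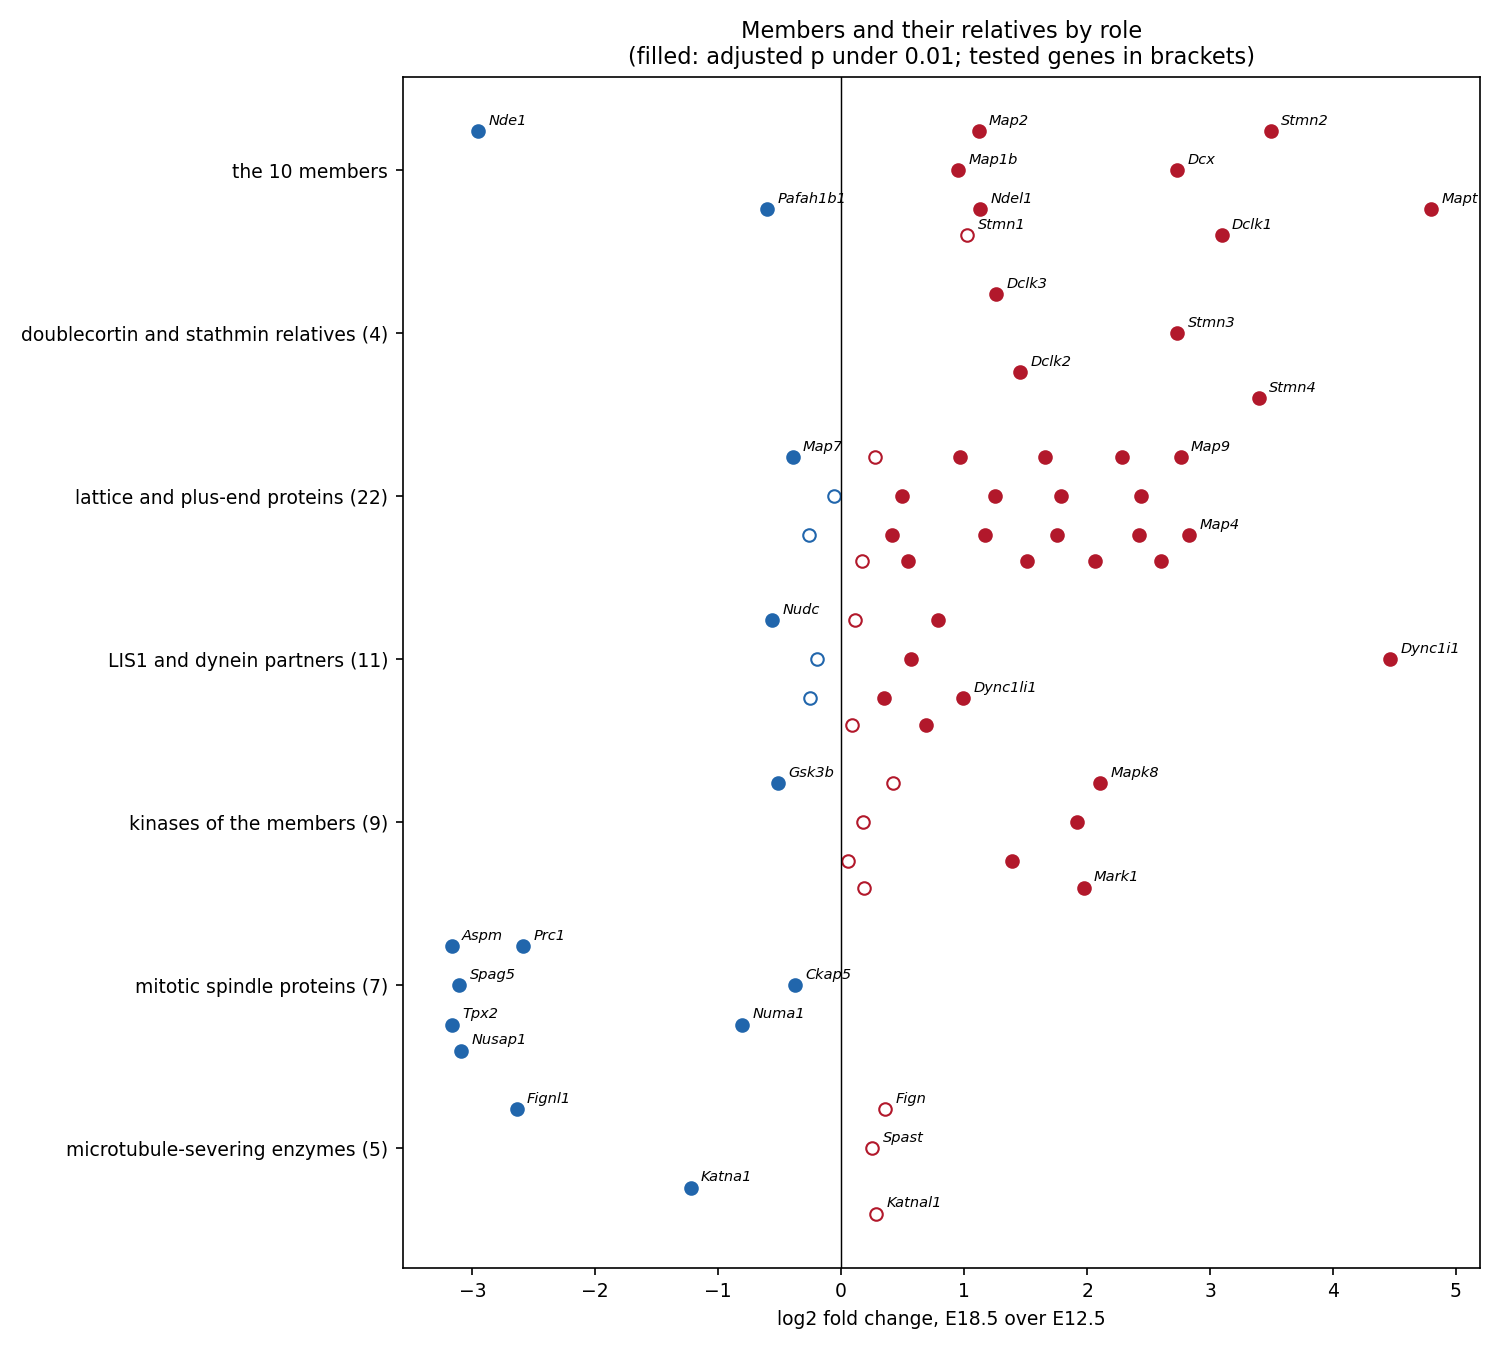
Log2 fold change of E18.5 over E12.5 (horizontal axis) for the main probes of the 10 members and of their relatives by role, with 1 point per gene, filled where the adjusted p was under 0.01. Nde1 lies beside 5 of the 7 mitotic spindle proteins, between -3.17 and -2.59, whereas 7 members lie with the lattice proteins, dynein chains and stathmins that rose.

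Cell type markers moved with these values, and in bulk RNA more cells of a type and more RNA per cell cannot be told apart. Of 8 tested neuronal markers, 7 rose between E18.5 and E12.5, and their summed normalized signal over the successive stages was 5250 to 10998, 16038 to 19479 and 23802 to 27170. E12.5 replicate 4 held the 10998, and the other arrays of its stage reached 6296. Tubb3 and Neurod6, among the 7 that rose, were each detected on only 1 of the 4 E12.5 arrays, so that their rises are no exact folds. Of the 8 apical progenitor markers 7 fell, with sums of 10938 to 13208, 7978 to 8581 and 2887 to 3316 over the successive stages. Among those 7, Pax6 was detected on no E18.5 array and passed the filter only through earlier stages. All 6 tested markers of cycling cells fell, with sums of 9969 to 14341, 4995 to 6103 and 1284 to 1484. All 5 tested interneuron markers rose, but each was detected on only 1 of the 4 E12.5 arrays, so that their rises are no exact folds. Their sum was 859 on E12.5 replicate 4, whereas the remaining E12.5 arrays had 117 to 120, from signals mostly not above background. The 4 choroid plexus markers fell, with sums of 6120 to 17855, 221 to 11529 and 104 to 174, and so did the 3 globins of primitive erythroid cells; 3 of those 4 and all 3 globins were detected on no E18.5 array. Of the oligodendrocyte lineage markers, Olig1 and Pdgfra rose. Olig2, Sox10 and the 3 astrocyte markers, Aqp4, Gfap and Aldh1l1, were detected on no E12.5 array and passed the filter only through later stages. Of the others, 2 of 3 endothelial and 2 of 5 microglial markers rose. Of 3 intermediate progenitor markers 2 fell between E18.5 and E12.5, with sums of 4863 to 6294, 7829 to 8674 and 2471 to 2990 over the successive stages, and Insm1 rose by 1.38 ± 0.16 in the earlier interval (adjusted p = 1.36e-05). The part of these cells in the members' changes was not tested.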

How the data were processed

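Total RNA of mouse embryonic cortex was hybridized to BeadChips (mouse WG-6 v2.0), with 4 arrays for each stage. The authors deposited for each array the bead signal of every probe, an intensity on a linear scale that was not normalized, and a detection p-value. They also deposited a table of log2 values, which equals the log2 signals after quantile normalization within 5.00e-09. The submitters' notes name lumi, with its version not given in the sources used here. No column was left unmapped.

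The background was estimated from the detection p-values and removed (limma 3.58.1 in R 4.3.3, nec, offset 16), and signals were transformed to log2 and quantile normalized, and 19652 probes with a detection p under 0.01 on at least 1 array were fitted across the 12 arrays (lmFit, eBayes, Benjamini-Hochberg over all tested probes). The study's text gives a false discovery rate of 0.01 and a 2-fold change for the arrays, and the test is not given in the sources used here. An unpaired t-test, which is among the tests stated for comparisons in general, was run as an alternative, called the methods' t-test. The platform annotation gave 1 symbol to 34885 probes, several to 18 and none to 10378. No symbol changed through its gene ID. All member probes are reported, a gene standing for its tested probe of highest mean. Named relatives are the 3 of each list with the largest called change between E18.5 and E12.5. Map7, Mapre3, Camsap2, Dclk3, Nudc, Dync1h1, Cdk5, Gsk3b, Numa1, Ckap5 and the named markers were added after their values were seen. So were Crmp1, Dpysl2, Dpysl3, Dpysl4, Dpysl5 and Camsap3. The members and lists were chosen with earlier results of these data known. Arrays have no read depth, and their number limits the precision. The fit was tested on simulated data, in which each probe had the spread of its E18.5 arrays at every stage. That test did not cover unequal spread between stages or an array that stands apart, such as E12.5 replicate 4. The alternatives changed the background correction, scaling, detection filter, threshold, adjustment, moderation, array weights, arrays fitted, test, probe rule and replicate block.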

Additional observations from a re-analysis of the deposited data

Results flagged for a closer look

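Within the members' 87 groups of 4 arrays, 13 had 1 array whose gap to the others, as a share of the range, exceeded Dixon's critical value for 4 samples, where chance gives about 1 in 20. E12.5 replicate 4 was the array in 6 of them: it was high for the second Dcx probe (11.17, with the other arrays at most 9.76), Dclk1 (8.67), Mapt (11.19), a second Mapt probe (6.14) and Stmn2 (11.98), and low for a second Nde1 probe (10.43). This array was singled out for 3.70% of all 19652 tested probes, the highest share of the 12 arrays, and E12.5 replicate 1 for 0.60%, the lowest. These are shares for single arrays. The share of groups flagged over all tested probes is not given here, so the 13 of 87 cannot be set beside it. E15.5 replicate 2 was high for Stmn1 (12.98, against 12.02 to 12.13) and for the Dcx clone probe (5.86). The remaining arrays were E15.5 replicate 1 for Dclk1 (9.51), E18.5 replicate 1 for a second Map2 probe (8.24) and for Nde1 (8.71), E18.5 replicate 4 for a second Map1b probe (11.50) and E12.5 replicate 3 for the main Pafah1b1 probe (10.32).

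The later change differed from the earlier one for 9 of 29 tested member probes (limma, adjusted p under 0.01). The share over all tested probes is not given here, and over the main probes of all tested genes it was 18.2%. The difference was -0.79 and -0.95 for a pair of Nde1 probes and 0.68 and 0.99 for a pair of Map1b probes. It was 1.79 and 0.83 for Dclk1 clone probes, 2.05 and 1.60 for Map2 clone probes and 1.50 for the Ndel1 clone probe. All of these clone probes were detected on no array of at least 1 stage, so that their values are descriptions only.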

How the results depend on the processing

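The directions of Dcx, Mapt, Map2, Map1b, Stmn1, Stmn2, Dclk1 and Nde1 in each comparison of stages, and the Nde1 minus Ndel1 differences, held under all alternatives run. Under median scaling, 1 member was lower between E15.5 and E12.5 in place of 2, and between E18.5 and E15.5 1 was higher and 2 were lower in place of 6 and 1. The later interval had 2 lower members at an adjusted p under 0.05, with array weights, with only the stages compared and with the methods' t-test. The earlier interval had 1 lower member under the last 3 of these, at 2-fold and with the mean of detected probes. At 2-fold, 3 members were higher in the later interval and 1 was lower between E18.5 and E12.5, as was 1 with the mean of detected probes. The count of members with unequal intervals, 1, became 0 under cyclic loess and at 2-fold, 3 with the mean of detected probes and 5 with array weights. Leaving out 1 array gave 1 to 2 lower members in either interval and 0 to 5 members with unequal intervals. The shares of all tested genes called under these alternatives are not given here. The cause of these shifts was not tested.

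No pairing of the arrays by replicate number was seen. The deviations of arrays with the same number correlated at -0.33 to 0.27, and 3 of 12 pairs exceeded 0.1. Arrays with different numbers correlated at -0.47 to 0.38. With 4 arrays per stage this cannot show that no chip or batch was shared. With the replicate block, 1 member was lower between E15.5 and E12.5 and 0 had unequal intervals.

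Dcx minus Dclk1 for E18.5 over E12.5 was -0.14 without background correction and in the authors' table, -0.23 at offset 50, -0.34 under cyclic loess and 0.17 with the mean of detected probes (exact p = 0.0857 to 0.514), and for E15.5 over E12.5 it was 0.81 with the mean of detected probes (exact p = 0.0286). Stmn1 minus Stmn2 in the later interval was -0.45 under median scaling and -0.50 under cyclic loess (exact p = 0.229 and 0.114). With 1 array left out, these ranged from -0.47 to -0.28, from -0.023 to 0.18 and from -0.78 to -0.40, and Dcx minus Dclk1 in the later interval ranged from -0.55 to -0.37. Among single genes, the mean of detected probes reversed Ndel1 between E15.5 and E12.5 (-0.074), Pafah1b1 in each comparison (0.015, 0.17 and 0.19), and the difference between intervals of Dclk1 (0.65) and Ndel1 (0.62). Median scaling reversed that difference for Map2 (-0.42), Stmn1 (-0.12) and Pafah1b1 (-0.13), and array weights did for Pafah1b1 (-0.0059). Leaving out 1 array gave -0.10 to 0.091 for Map2 and -0.052 to 0.088 for Pafah1b1. Probes near background, such as the clone probes of Dcx, Dclk1, Map2 and Ndel1, give bounds at most.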
